A study of Rattus norvegicus with 24 samples.

Results

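Collagen hydroxylation and crosslinking was followed through 8 genes that were taken by symbol from the deposited transcript table: Lox, Loxl1 and Loxl2 (lysyl oxidases), P4ha1 and P4ha2 (prolyl 4-hydroxylases), Plod1 and Plod2 (lysyl hydroxylases) and Serpinh1 (the procollagen chaperone HSP47). They are 8 of the 15273 genes in the table, and 13 of its 20027 transcripts. The tibialis anterior, the main dorsiflexor of the ankle, was sequenced from 12 male Wistar rats after 2, 10, 20 or 30 days of daily SpillOver resistance training, with 3 rats at each time. An implanted pulse generator made the left muscle contract against the co-contracting plantarflexors, and the right muscle of the same rat, which was not stimulated, served as the contralateral control, so that each rat gave 1 trained and 1 control library (24 muscles in all). Both muscles were taken 1 h after the last session, and the control leg shared the animal's anaesthesia, abdominal implant, drugs and handling. The hind-limb incision and the electrodes were on the left only, so the legs differed in limb surgery as well as in training. No library from an untrained or sham animal was analysed here. RNA came from bulk tissue left after the mid-belly had been taken for histology, so fewer cells of a type and less RNA per cell cannot be told apart in any value below.

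A collagen chain is modified while it is still in the endoplasmic reticulum. Prolyl 4-hydroxylase, a complex of an alpha subunit encoded by P4ha1, P4ha2 or P4ha3 with P4hb, hydroxylates proline and so stabilises the triple helix, while the lysyl hydroxylases encoded by Plod1, Plod2 and Plod3 act on lysines of the helix and, in the case of Plod2, of the telopeptides that later take part in crosslinks. HSP47 holds the folded procollagen until it leaves for the Golgi, and the copper enzymes of the lysyl oxidase family oxidise lysine and hydroxylysine outside the cell, which starts the crosslinks of collagen and elastin fibres. In skeletal muscle these steps build the endomysium, perimysium and tendon junctions, mostly in fibroblasts.

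The region just before the annotated start was at hand for 6 of the 8 genes in the RefSeq promoter set (build GRCr8). The 250 bases before the start are printed 5′ to 3′ for Serpinh1 (chr1:163062977-163063226, minus strand), Plod2 (chr8:101964068-101964317, plus strand) and the pair P4ha1 (chr20:27844796-27845045, plus strand) and P4ha2 (chr10:38743644-38743893, plus strand), because these are a chaperone, a gene called higher at the early times, and a pair of isoenzymes with different responses. Capitals mark matches to the inverted heat shock motif TTCNNGAA and to ACGTG, a form of the hypoxia response core, on either strand.
Serpinh1: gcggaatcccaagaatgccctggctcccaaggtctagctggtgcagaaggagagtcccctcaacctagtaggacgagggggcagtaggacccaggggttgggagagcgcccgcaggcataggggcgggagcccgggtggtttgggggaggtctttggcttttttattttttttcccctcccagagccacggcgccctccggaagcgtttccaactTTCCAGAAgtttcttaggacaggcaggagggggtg
Plod2: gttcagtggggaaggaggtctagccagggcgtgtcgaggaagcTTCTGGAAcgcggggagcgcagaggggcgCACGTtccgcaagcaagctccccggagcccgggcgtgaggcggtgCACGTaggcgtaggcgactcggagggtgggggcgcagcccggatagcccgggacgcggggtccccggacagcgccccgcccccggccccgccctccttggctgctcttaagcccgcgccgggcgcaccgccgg
P4ha1: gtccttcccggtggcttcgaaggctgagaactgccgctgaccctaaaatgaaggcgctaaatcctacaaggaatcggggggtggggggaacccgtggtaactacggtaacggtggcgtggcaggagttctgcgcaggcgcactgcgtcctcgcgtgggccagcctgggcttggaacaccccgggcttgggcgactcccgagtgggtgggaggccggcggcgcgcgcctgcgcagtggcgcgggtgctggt
P4ha2: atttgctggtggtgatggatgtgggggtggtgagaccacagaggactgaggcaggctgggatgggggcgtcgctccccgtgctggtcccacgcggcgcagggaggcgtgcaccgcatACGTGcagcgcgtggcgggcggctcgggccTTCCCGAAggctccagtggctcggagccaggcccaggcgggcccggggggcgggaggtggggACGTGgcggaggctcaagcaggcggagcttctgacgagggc
TTCNNGAA occurred once in Serpinh1, 35 bases before the start, once in Plod2, 207 bases before it, and once in P4ha2, 103 bases before it, and 7.48% of the 33469 promoters of this length in the set held a match. ACGTG, or CACGT on the opposite strand, had 2 matches in Plod2 and 2 in P4ha2 and none in P4ha1, Serpinh1, Plod1 or Loxl1, against 16.6% of all promoters with at least 1. The other form of this core, GCGTG, was not searched for, and it is present in the P4ha1, P4ha2 and Plod2 sequences above. The E-box CACGTG, which contains ACGTG, the AP-1 motif TGANTCA and the CCAAT box matched in 0 of the 6 windows, and 5.59%, 6.34% and 34.0% of all promoters held them. The GC box GGGCGG matched in Serpinh1, Plod1, Plod2 and P4ha2 and in 30.5% of all promoters. These are matches of letters, not sites shown to be bound.

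Values have 1 equal total per sample and were treated as scaled for transcript length too (TPM type), then summed per gene and rescaled here. The paper names median-of-ratios normalization and no scaling for length. Levels set side by side between genes, and ratios of genes, assume that this scaling was made. In the 12 control muscles Serpinh1 was highest at 39.3 ± 6.01 (SD, n = 12), followed by P4ha1 at 28.6 ± 3.66, P4ha2 at 11.0 ± 1.36, Plod1 at 7.84 ± 0.697 and Plod2 at 2.55 ± 0.446. The lysyl oxidases were lowest, with Loxl2 at 1.27 ± 0.430, Lox at 1.10 ± 0.411 and Loxl1 at 0.630 ± 0.259. Each gene of this order from Serpinh1 to Loxl2 was above the next in 12 of 12 control muscles, although the ranges of Serpinh1 and P4ha1 overlapped across rats. The ranges of Loxl2 and Lox overlapped, with Loxl2 above Lox in 7 of 12, and Lox was above Loxl1 in 11 of 12. By the limma F test, 0 of the 8 genes differed between the 4 control groups at an adjusted p under 0.05 (0.152% of all genes tested did). At an unadjusted threshold of 0.05 in the same test P4ha1 and Loxl2 passed, as did 9.04% of all genes. In the trained muscles the order shifted. After 10 and 20 days Loxl2 was above Plod2 by group mean (5.54 against 4.68 and 3.63 against 2.68), and the ranges of the pair overlapped at both times.

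Each trained group of 3 muscles was compared with the 12 control muscles on the scale of log2(value + 1), and a gene was called at a Benjamini-Hochberg adjusted p under 0.05 over the 11196 genes tested in limma. The same 12 controls enter all 4 comparisons, which are therefore not independent of each other. All 8 genes passed the filter on low values (at least 1 in 3 or more muscles), but Loxl1 did so only through its trained muscles. After 2 days 5 of the 8 were higher (Lox, Loxl1, Loxl2, Plod2 and Serpinh1) and 1 was lower (P4ha1), where 15.4% of all genes tested were higher and 13.5% lower. After 10 days the same 5 were higher and the same 1 lower (background 15.6% and 13.3%). After 20 days 4 were higher and 1 lower (11.7% and 9.64%), and after 30 days again 4 and 1 (11.1% and 9.46%), Plod2 being the gene no longer called. The median log2 fold change of the 8 genes was 0.91, 0.84, 0.54 and 0.40 in order of time, beside medians over all genes tested of -0.01, -0.03, -0.03 and -0.01. Lox, Loxl1, Loxl2 and Serpinh1 were called higher at all 4 times, as were 5.24% of all genes tested, and P4ha1 was called lower at all 4, as were 2.95%. P4ha2 and Plod1 were called at no time. The 5 calls after 30 days were the least stable, with 2 made when the rat was a block (P4ha1 and Loxl1) and 2 against the 3 controls of that time alone (P4ha1 and Serpinh1). Over the mean of the 4 times 5 genes were higher and 1 was lower (19.9% and 20.3% of all genes tested). Between trained groups 1 of the 8 genes differed from 2 to 20 days (8.05% of all genes), 2 from 2 to 30 days (15.0%), 2 from 10 to 30 days (3.94%), and 0 from 2 to 10 days (1.93%), 10 to 20 days (0.170%) or 20 to 30 days (0.0357%). A fit with the rat as a block compares another quantity between times, the change from the rat's own contralateral muscle. For that quantity 0 of these 5 calls were made, and 1.73%, 2.80% and 0.0804% of all genes differed from 2 to 20, 2 to 30 and 10 to 30 days.

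**Figure D1:**
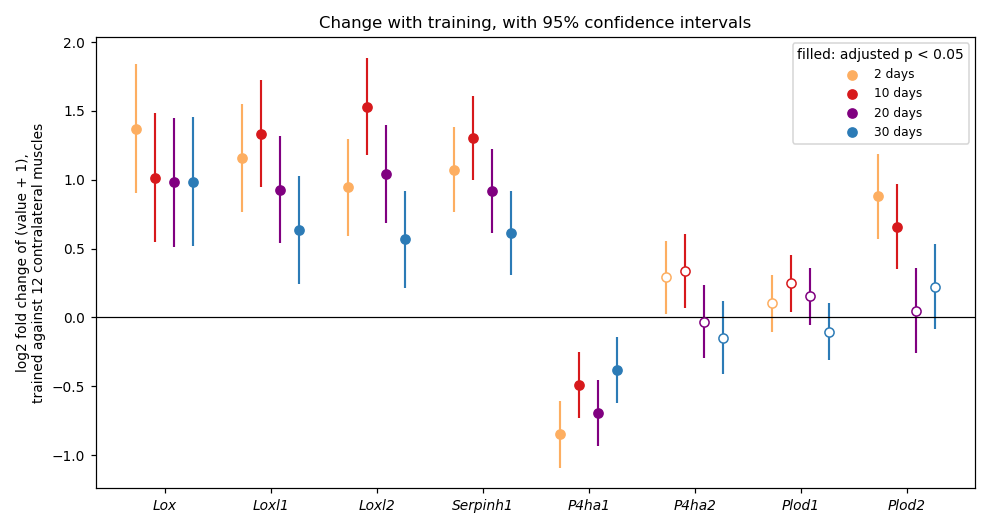
Log2 fold change of (value + 1) for each gene in trained muscles (n = 3 per time) against the 12 contralateral muscles, with 95% confidence intervals not adjusted for the number of genes; filled points have a limma adjusted p under 0.05. Lox, Loxl1, Loxl2 and Serpinh1 lie above 0 and P4ha1 below 0 at all 4 times, while Plod2 is filled after 2 and 10 days.

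P4ha1, the alpha subunit with the higher level in control muscle, was the only one of the 8 genes called lower. The trained muscles, in the order of their replicate numbers, measured 16.4, 17.0 and 12.9 after 2 days, 21.8, 16.5 and 22.1 after 10 days, 18.3, 15.4 and 17.9 after 20 days and 19.9, 22.7 and 22.3 after 30 days. The control muscles ranged from 22.3 to 34.8, with a median of 28.1. All 3 trained muscles lay below all 12 controls after 2, 10 and 20 days, a pattern shown by 6.17%, 8.15% and 4.81% of all genes tested, and after 30 days 1 of 3 did (6.08% of all genes had all 3 below). P4ha1 fell by 0.85 ± 0.12 (SE) on the log2 scale after 2 days (limma adjusted p = 7.17e-06), by 0.49 ± 0.12 after 10 days (limma adjusted p = 0.0025), by 0.70 ± 0.12 after 20 days (limma adjusted p = 0.000115) and by 0.38 ± 0.12 after 30 days (limma adjusted p = 0.022). The group means were 0.539, 0.702, 0.601 and 0.756 of the control mean. Within rats P4ha1 was lower in the trained muscle in 12 of 12, with trained to contralateral ratios from 0.497 to 0.743. The controls of the 2 and 20 day rats sat lower (22.3 to 27.0) than those of the 10 and 30 day rats (29.3 to 34.8), without overlap, and with the rat as a block the fall was 0.66, 0.61, 0.59 and 0.56 on the log2 scale in order of time, called at each. Leaving out trained replicate 2 after 10 days ended the call (limma adjusted p = 0.0528), and after 30 days leaving out trained replicate 1, 2 or 3 did (limma adjusted p = 0.12, 0.054 and 0.0613).

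P4ha2, the second alpha subunit, did not pass the test at any time. Its trained muscles measured 11.0, 16.8 and 13.5 after 2 days, 13.0, 13.4 and 16.0 after 10 days, 10.5, 13.0 and 8.78 after 20 days and 11.6, 10.2 and 7.81 after 30 days, against controls from 9.23 to 13.2 with a median of 10.8. The groups overlapped at every time, with 2 of 3 trained muscles above all controls after 2 and after 10 days. The log2 fold changes were 0.29 (95% interval 0.02 to 0.56, limma adjusted p = 0.0958), 0.34 (0.07 to 0.61, limma adjusted p = 0.0514), -0.03 (-0.30 to 0.24) and -0.15 (-0.41 to 0.12). The call after 10 days was near the threshold, and without rescaling of the deposited values it was made (log2 fold change 0.45, limma adjusted p = 0.0303). With the rat as a block and with time-matched controls the value was 0.15 (limma adjusted p = 0.523 and 0.57).

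The balance of the alpha subunits differed between legs. The ratio of P4ha1 to P4ha2 was 2.63 ± 0.336 (SD, n = 12) in control muscles, with a range of 2.26 to 3.28. It was 1.15 ± 0.290 (n = 3) after 2 days, 1.43 ± 0.227 after 10 days, 1.65 ± 0.432 after 20 days and 2.27 ± 0.567 after 30 days. All trained muscles at 2, 10 and 20 days were below the lowest control, and at 30 days 2 of 3 were (1.72 and 2.23) while the other, at 2.85, was within the control range. Against its own contralateral muscle the ratio was lower in 11 of 12 rats, with a mean log2 difference of -0.75 ± 0.39 (SD), and trained replicate 3 of 30 days was the exception. The ratio of P4ha1 to P4ha2, and that of Plod1 to Plod2 below, were formed after the values of their genes had been seen. They are given as descriptions. A sign-flip test over rats was run on both, and its p-values are not given because of that choice.

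Of the partners of this step, P4hb (protein disulphide isomerase, the beta subunit) measured 67.2 ± 3.9 in controls and rose after 2 days, by 0.60 ± 0.08 (SE) on the log2 scale (limma adjusted p = 2.89e-06), and after 10 days, by 0.23 ± 0.08 (limma adjusted p = 0.025), with 0.03 and -0.01 after 20 and 30 days. P4ha3 was too low to be tested, with control values from 0 to 0.108, and it is listed at 0 in all trained muscles of 20 and 30 days. P4htm, a transmembrane prolyl 4-hydroxylase known to act on hypoxia-inducible factor and not on collagen, rose at all 4 times, with log2 fold changes of 1.45, 1.31, 0.88 and 0.57.

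**Figure D2:**
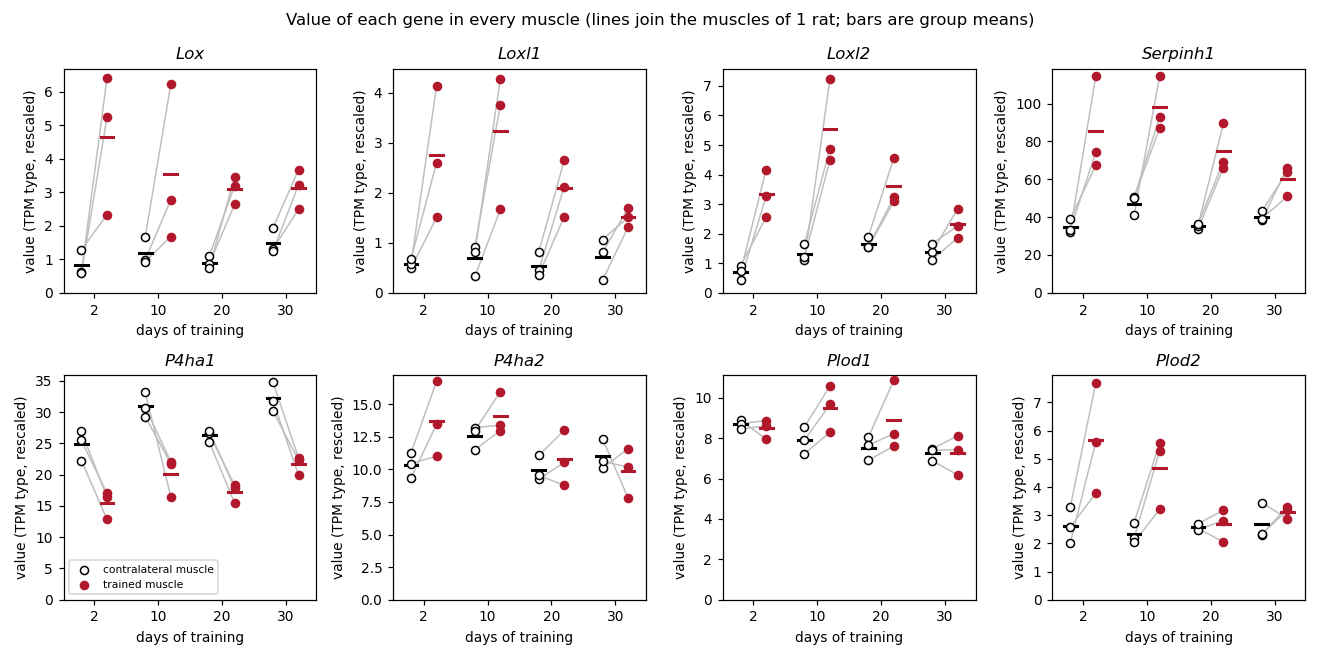
Value of each of the 8 genes (TPM type, rescaled, from 0) in every trained (red) and contralateral (open) muscle by days of training; grey lines join the muscles of 1 rat and bars are group means (n = 3). P4ha1 falls along all 12 lines, and Lox, Loxl1, Loxl2 and Serpinh1 rise along all 12.

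Plod2, the lysyl hydroxylase of collagen telopeptides, rose early and was not called later. Trained muscles measured 3.78, 7.67 and 5.60 after 2 days, 5.28, 5.55 and 3.21 after 10 days, 2.05, 2.81 and 3.18 after 20 days and 3.31, 2.88 and 3.18 after 30 days. Controls ranged from 2.01 to 3.45 with a median of 2.51. All 3 trained muscles were above all 12 controls after 2 days (8.57% of all genes tested), 2 of 3 after 10 days and 0 of 3 after 20 and 30 days. The log2 fold change was 0.88 ± 0.15 (SE) after 2 days (limma adjusted p = 8.53e-05) and 0.66 ± 0.15 after 10 days (limma adjusted p = 0.00156), and the means were 2.23 and 1.83 times the control mean. After 20 days it was 0.05 (95% interval -0.26 to 0.36) and after 30 days 0.22 (-0.08 to 0.53). Tested directly between trained groups, Plod2 fell by 0.83 ± 0.19 on the log2 scale from 2 to 20 days (limma adjusted p = 0.00732) and by 0.66 ± 0.19 from 2 to 30 days (limma adjusted p = 0.0196). As changes from the contralateral muscle, with the rat as a block, the falls were 0.83 and 0.69 and were not called (limma adjusted p = 0.0825 and 0.122).

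Plod1, which acts on lysines of the helix, measured 7.96, 8.87 and 8.61 after 2 days, 8.29, 9.67 and 10.6 after 10 days, 7.62, 10.9 and 8.22 after 20 days and 8.12, 7.43 and 6.18 after 30 days. The controls ranged from 6.88 to 8.88 with a median of 7.78, so that the groups overlapped at every time. The log2 fold changes, 0.10, 0.25, 0.15 and -0.10, did not pass the test, and their 95% intervals together ran from -0.31 to 0.46. The value after 2 days had no stable direction, being -0.03 with the rat as a block. The ratio of Plod1 to Plod2 was 3.15 ± 0.601 (SD, n = 12) in controls, 1.60 ± 0.479 (n = 3) after 2 days, 2.20 ± 0.953 after 10 days, 3.39 ± 0.700 after 20 days and 2.33 ± 0.337 after 30 days. It was below the lowest control ratio of 2.15 in all 3 trained muscles after 2 days, in 2 of 3 after 10 days, in 0 of 3 after 20 days and in 1 of 3 after 30 days (1.94). Against the contralateral muscle it was lower in 9 of 12 rats, with a mean log2 difference of -0.47 ± 0.61 (SD). Plod3, which also has glycosyltransferase activity, rose after 2 days by 0.55 ± 0.13 (SE) on the log2 scale (limma adjusted p = 0.0029) and had values of 0.25, 0.17 and 0.14 at the later times.

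**Figure D3:**
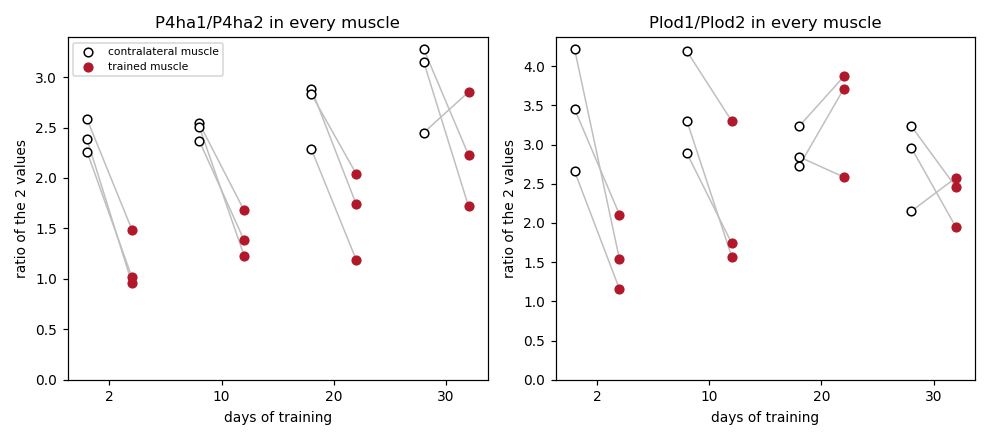
Ratio of P4ha1 to P4ha2 (left) and of Plod1 to Plod2 (right) in every muscle by days of training, trained in red and contralateral open, with lines joining the muscles of 1 rat. The first ratio is lower in the trained muscle of 11 of 12 rats, and the other in 9 of 12.

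Serpinh1 was the most abundant of the 8 in every group. Trained muscles measured 67.3, 114 and 74.2 after 2 days, 114, 86.8 and 92.8 after 10 days, 66.2, 89.6 and 69.3 after 20 days and 66.2, 64.0 and 50.9 after 30 days. The controls ranged from 32.3 to 50.5 with a median of 38.5. All 3 trained muscles were above all 12 controls at each of the 4 times, as in 8.57%, 10.0%, 8.23% and 7.48% of all genes tested. Serpinh1 rose by 1.07 ± 0.15 (SE) on the log2 scale after 2 days (limma adjusted p = 7.63e-06), 1.30 ± 0.15 after 10 days (limma adjusted p = 4.31e-07), 0.92 ± 0.15 after 20 days (limma adjusted p = 7.46e-05) and 0.61 ± 0.15 after 30 days (limma adjusted p = 0.00454), and the means were 2.17, 2.49, 1.91 and 1.54 times the control mean. It was higher in the trained muscle in 12 of 12 rats, by 1.30 to 3.53 times. From 10 to 30 days its trained level fell by 0.69 ± 0.19 (limma adjusted p = 0.0392). Its change from the contralateral muscle, with the rat as a block, fell by 0.47 and was not called (limma adjusted p = 0.507). With that block the rises were 1.23, 1.04, 1.06 and 0.57 in order of time, largest after 2 and not 10 days. The last was not called (limma adjusted p = 0.0584). The control means were 34.8, 47.1, 35.1 and 40.1 in the same order. The rise after 30 days depended on the scaling, since the log2 fold change was 0.39 on the values as deposited (limma adjusted p = 0.0954), where the median of all genes moved by -0.18, and 0.16 in the deposited gene-level table (limma adjusted p = 0.455). The longer of its 2 transcripts (chr1:164301010-164308318, minus strand, build rn6) carried 97.6% of the control value and 98.8% to 99.3% of the trained values.

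Lox, the founding lysyl oxidase, was at 2.33, 6.40 and 5.23 in the trained muscles after 2 days, 6.22, 2.78 and 1.68 after 10 days, 3.20, 2.64 and 3.46 after 20 days and 3.67, 2.49 and 3.21 after 30 days. Controls ranged from 0.588 to 1.93 with a median of 1.04. Only 1 of the 12 trained muscles, replicate 3 of 10 days, overlapped the controls. All 3 trained muscles were above all controls in 8.57%, 8.23% and 7.48% of all genes tested after 2, 20 and 30 days. Lox rose by 1.37 ± 0.23 (SE) on the log2 scale after 2 days (limma adjusted p = 6.73e-05), 1.01 ± 0.23 after 10 days (limma adjusted p = 0.00143), 0.98 ± 0.23 after 20 days (limma adjusted p = 0.00268) and 0.98 ± 0.23 after 30 days (limma adjusted p = 0.00303). Because the control level is close to the pseudocount of 1, these understate the change, and the ratios of means were 4.21, 3.22, 2.81 and 2.83. The call after 10 days rested on trained replicate 1, without which the log2 fold change was 0.62 (limma adjusted p = 0.0584), and that after 30 days was lost with the rat as a block (0.73, limma adjusted p = 0.081).

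Loxl1, a paralogue known for its part in elastic fibres, had the lowest control level, from 0.256 to 1.07 with a median of 0.628. The trained values were 1.51, 4.13 and 2.60 after 2 days, 3.76, 4.28 and 1.67 after 10 days, 2.13, 2.65 and 1.52 after 20 days and 1.70, 1.31 and 1.51 after 30 days. All 12 trained muscles were above all 12 controls, and Loxl1 entered the test through these trained muscles. At single times 8.57%, 10.0%, 8.23% and 7.48% of all genes tested had all 3 trained muscles above all controls. The share at all times together was not counted. Loxl1 rose by 1.16 ± 0.19 (SE) on the log2 scale after 2 days (limma adjusted p = 5.89e-05), 1.34 ± 0.19 after 10 days (limma adjusted p = 8.68e-06), 0.93 ± 0.19 after 20 days (limma adjusted p = 0.000868) and 0.64 ± 0.19 after 30 days (limma adjusted p = 0.0183), and the ratios of means were 4.36, 5.14, 3.33 and 2.39. Without trained replicate 1 or 3 of 30 days the last call was lost (limma adjusted p = 0.0851 and 0.0695).

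Loxl2, the paralogue known to act on collagen IV of basement membranes, measured 2.57, 3.27 and 4.17 after 2 days, 7.25, 4.88 and 4.50 after 10 days, 3.10, 4.56 and 3.23 after 20 days and 2.84, 1.86 and 2.26 after 30 days, against controls from 0.440 to 1.90 with a median of 1.29. All trained muscles of 2, 10 and 20 days and 2 of 3 of 30 days were above all controls. At 2, 10 and 20 days 8.57%, 10.0% and 8.23% of all genes tested had all 3 above. Loxl2 rose by 0.94 ± 0.17 (SE) on the log2 scale after 2 days (limma adjusted p = 0.000191), 1.53 ± 0.17 after 10 days (limma adjusted p = 3.39e-07), 1.04 ± 0.17 after 20 days (limma adjusted p = 9.18e-05) and 0.57 ± 0.17 after 30 days (limma adjusted p = 0.0205), or 2.63, 4.37, 2.87 and 1.83 times the control mean. Its trained level fell by 0.97 ± 0.22 from 10 to 30 days (limma adjusted p = 0.0146). Its change from the contralateral muscle, with the rat as a block, fell by 1.01 and was not called (limma adjusted p = 0.123). With that block the rises were 1.35, 1.48, 0.79 and 0.47 in order of time, and the control means were 0.694, 1.32, 1.66 and 1.39. The rise after 30 days was lost with the block (0.47, limma adjusted p = 0.0924), on the values as deposited (0.41, limma adjusted p = 0.103) and without trained replicate 1 or 3 (limma adjusted p = 0.134 and 0.0698). Of the other members of the family, Loxl3 was low in controls (0.390 ± 0.13) and passed the filter through its trained muscles. It rose at all 4 times, with log2 fold changes of 0.44, 0.66, 0.43 and 0.50. Loxl4 was too low to be tested.

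Other genes of the same families, or known to work beside these enzymes, were more often called higher than lower, on lists set up with earlier results of these data known. Of 13 tested other family members and complex partners, 10 were higher after 2 days, 8 after 10 days and 6 after 20 and after 30 days, and 0 were lower. P4htm, described above as not acting on collagen, is counted among these 13 and was higher at each time. After 30 days 3 of the 13 were higher on the values as deposited, where the list median was -0.03 in place of 0.14, and 4 with the rat as a block. Fkbp10, a procollagen chaperone and partner of lysyl hydroxylase, had log2 fold changes of 1.11, 0.98, 0.88 and 0.53 in order of time, Ppib, a prolyl isomerase of the same compartment, had 0.72, 0.57, 0.56 and 0.53, and P3h4, a partner of lysyl hydroxylase, had 0.55, 0.98, 0.69 and 1.07. Tmem38b, an endoplasmic reticulum cation channel needed for collagen assembly, rose by 1.48 after 2 days and 0.68 after 10 days and was at 0.19 and 0.10 thereafter, without passing the test. Colgalt1, which adds galactose to hydroxylysine, did not pass at any time (0.16, 0.08, 0.08 and 0.01).

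Of 7 tested genes of procollagen export and propeptide removal, 3, 5, 5 and 3 were higher and 2, 2, 2 and 1 lower in order of time. Pcolce, the enhancer of C-propeptide removal, rose by 1.48, 1.74, 1.45 and 0.83 on the log2 scale. Bmp1, the protease that removes the C-propeptide and also activates the lysyl oxidase precursor, had log2 fold changes of 0.32 (limma adjusted p = 0.0812), 0.82, 0.42 and 0.29 (limma adjusted p = 0.129), of which those of 10 and 20 days passed. Mia2, which helps export, fell by 0.72 on the log2 scale after 2 days. Of 9 tested matrix scaffolds of lysyl oxidases 6, 7, 6 and 3 were higher and 0 lower, led at each time by Postn (periostin; 1.49, 2.55, 1.98 and 1.77) and Fn1 (fibronectin; 1.16, 1.45, 1.08 and 1.15). Of 8 tested genes of copper and ascorbate supply, the cofactors of these enzymes, 3, 4, 1 and 2 were higher and 0 lower, with Slc2a1, a glucose transporter that also carries dehydroascorbate, at 1.36 after 2 days and 1.32 after 10 days. Under the block by rat 2, 2, 1 and 1 of these were higher, and on the values as deposited 5, 5, 1 and 1.

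The collagen substrates were mostly called higher. All 6 tested fibrillar collagen genes were higher after 10 days and 5 of 6 at each other time, with medians of 1.15, 1.56, 1.35 and 0.70 on the log2 scale, and of 11 tested network and beaded collagen genes 8, 11, 10 and 10 were higher, with medians of 0.75, 1.39, 1.17 and 0.77. On the values as deposited 3 of the 6 fibrillar genes were higher after 30 days. Col1a1 measured 32.9 ± 13 (SD, n = 12) in controls and rose by 1.79, 2.65, 2.29 and 1.27 on the log2 scale, and Col3a1 measured 56.9 ± 19 and rose by 1.81, 2.64, 2.35 and 1.62. Col4a1, a chain of the basement membrane, rose by 2.04 after 10 days, 1.81 after 20 days and 1.18 after 30 days. Set against Col1a1, the summed level of the 8 genes was 149% to 939% of it in the control muscles, and 117% to 141% after 2 days, 54.5% to 104% after 10 days, 79.0% to 82.1% after 20 days and 120% to 162% after 30 days. The trained muscles thus had a lower summed level of the 8 genes relative to Col1a1 at 2, 10 and 20 days than any control. At 30 days the groups overlapped. The difference between the lists was not tested.

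**Figure D4:**
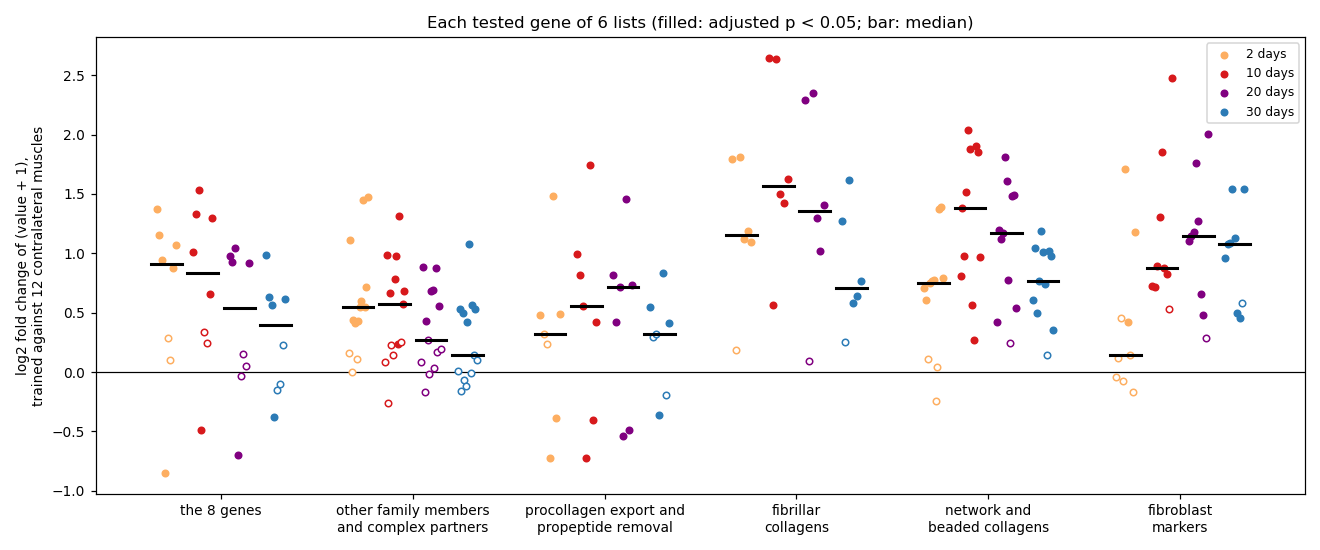
Log2 fold change of (value + 1) against the 12 contralateral muscles for each tested gene of 6 lists, by days of training; filled points have a limma adjusted p under 0.05 and black bars are list medians. The fibrillar collagens have medians of 1.15, 1.56, 1.35 and 0.70 beside 0.91, 0.84, 0.54 and 0.40 for the 8 genes, and the fibroblast markers have 0.14 after 2 days (0.66 with the rat as a block, not plotted).

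Markers of the cells that make and surround the matrix also changed with training, by medians that did not all follow those of the 8 genes over time. Their part in these results was not tested. Of 9 tested fibroblast markers 3, 8, 8 and 8 were higher, with medians of 0.14, 0.87, 1.15 and 1.08. Their summed level was 160 to 314 in controls, 230 to 311 after 2 days, 382 to 630 after 10 days, 668 to 689 after 20 days and 579 to 635 after 30 days, and 0 of the defining markers were at 0. After 2 days this sum lay within the control range while the sum of the 8 genes, 113 to 178, lay above the control range of 77.4 to 111. Abundant genes weigh most in both sums, with control means of 134 for Gsn and 64.4 for Dcn, and 39.3 for Serpinh1. With the rat as a block 5 of the 9 fibroblast markers were higher after 2 days, with a median of 0.66 in place of 0.14, beside 1.02 for the 8 genes. Thy1 and Lum were called at each time (Thy1 1.18, 2.48, 2.01 and 1.54). Of 9 tested macrophage markers 7, 8, 9 and 9 were higher (summed level 18.5 to 43.1 in controls, and 65.8 to 169, 55.5 to 119, 74.9 to 89.4 and 78.9 to 103 in the trained groups). Of 5 tested tendon markers 2, 3, 4 and 1 were higher, led by Egr1, a transcription factor also induced by contraction, with 4.76 after 2 days, and of 6 smooth muscle and pericyte markers 4, 2, 1 and 1 were higher and 1 was lower after 2 days, but 1 was higher and 0 lower at that time with the rat as a block. Of 5 endothelial markers 0, 2, 3 and 2 were higher and 1 was lower after 2 days, with 1 higher after 30 days and 0 lower after 2 days under the block, and 0 at both on the values as deposited. Fibre genes of the labelled tissue were high, with Acta1 at 25377, Ckm at 15502 and Tnnt3 at 12930 as means of control muscles. Among 8 tested fibre markers 1, 4, 1 and 1 were higher and 3, 4, 4 and 3 lower, with Pvalb, a calcium buffer of the fastest fibres, having fallen by 2.27 on the log2 scale after 10 days. With the block 1 fibre marker was higher at each time and 2, 4, 2 and 2 were lower.

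P4ha1, P4ha2, Plod2 and Lox are textbook targets of hypoxia-inducible factor, and among them P4ha1 fell after 2 and 10 days while Plod2 and Lox rose and P4ha2 was not called. Of 14 tested hypoxia response genes 2, 3, 4 and 4 were higher and 7, 3, 1 and 2 lower in order of time, with medians of -0.26, -0.11, -0.01 and 0.08. Under the block by rat 1, 3, 4 and 4 were higher and 5, 1, 0 and 0 lower, and on the values as deposited 2, 4, 4 and 2 were higher and 4, 2, 1 and 3 lower. Hif1a rose at each time, from 0.58 after 2 days to 1.03 after 20 days, as did Vegfa, with 0.59, 0.87, 1.00 and 0.78. Adm was not called after 2 days and rose by 1.24, 1.05 and 1.17 after 10, 20 and 30 days. Pdk1, which restrains entry of pyruvate into mitochondria, fell by 0.57 after 2 days. Of 13 tested transforming growth factor beta response genes 5, 5, 4 and 4 were higher and 0, 1, 1 and 1 lower. Ccn2, a matricellular growth factor, rose by 1.62, 1.73, 0.96 and 1.03 on the log2 scale. On the values as deposited 4 genes of this list were lower after 30 days in place of 1.

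Across the 24 muscles the 8 genes followed each other to different degrees, given here as Pearson r on the log2 scale and only as a description, since the muscles share rats and training. The correlation was 0.89 between Loxl2 and Serpinh1, 0.88 between Loxl1 and Serpinh1 and 0.85 between Lox and Loxl1. P4ha1 was negatively correlated with each of the other 7, from -0.23 with P4ha2 to -0.78 with Loxl1. Among all other tested genes the closest to Loxl2 were Col5a1 (0.97), Col6a1 (0.96) and Col6a2 (0.96), and the closest to Serpinh1 were Atp8b2 (0.96), Niban2 (0.96) and Itga5 (0.95). Lox was closest to Gm2a (0.94), Actr3 (0.93) and Ppib (0.92), Loxl1 to Oaf (0.94), Tgfb1 (0.93) and Ehd4 (0.93), and Plod2 to Myl12a (0.91), Eny2 (0.91) and Cd99l2 (0.91). For P4ha1 they were Pnpla8 (0.89), Senp2 (0.88) and Ppp3cb (0.87), for P4ha2 Gipc1 (0.80), Ppp1r13l (0.79) and Pacsin3 (0.78) and for Plod1 Sipa1 (0.82), Esam (0.81) and Bcam (0.80).

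The libraries differed in composition in ways that touch the latest time most. Mitochondrial transcripts took 23.4% to 43.9% of the value per muscle, and the 30 day trained muscles, at 39.9% to 43.9%, were at the upper end with 1 control of that time (43.7%). Without rescaling, the share of called genes that were higher went from 53.4% to 74.5% after 2 days, from 53.9% to 75.4% after 10 days, from 54.9% to 61.0% after 20 days and from 54.0% to 20.0% after 30 days. Of the 8 genes, 3 were then called after 30 days (Lox and Loxl1 higher, P4ha1 lower) and 8 after 10 days (P4ha2 and Plod1 also higher). Several transcripts were listed for 4 of the genes (Loxl2, P4ha2, Plod2 and Serpinh1), and the division between overlapping transcripts is uncertain, so the summed value was used.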

How the data were processed

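Poly-A RNA from 24 muscles of 12 rats was sequenced by the authors as paired-end reads from a directional library kit. Per the methods and the labels, the authors trimmed the reads, aligned them with STAR to the rn6 genome in Partek Flow, quantified Ensembl transcripts and did not pool replicates. They deposited TPM-type values for 20027 transcripts, with 1 equal total per sample, although the table is named as normalized counts. The authors' gene-level table, in units of signal, covers 4635 genes. Its scaling is not given in the sources used here, and it holds Serpinh1 only of the 8 genes. A table of the authors' own comparisons (p-value, FDR, ratio and fold change) was not used. No file holds counts, so count models such as DESeq2 were not run here. The paper gives a lower bound on reads per sample and points to quality data, which were not used here. The precision set by depth was therefore not assessed.

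Here each muscle's TPM-type values were rescaled by median of ratios (over 16230 transcripts above 0 in all muscles, factors 0.778 to 1.14) and summed per gene. A gene was tested if it reached 1 in 3 or more muscles. Linear models of log2(value + 1) used limma (version 3.58.1, under R 4.3.3), with all 12 control muscles as 1 group and 3 muscles per trained group. Benjamini-Hochberg adjustment covered all genes tested within a comparison. Tables and plots used Python 3.11.15, numpy 2.4.6, pandas 2.3.3, scipy and matplotlib. Rescaling matters because mitochondrial transcripts take a large and varying share of a fixed total. Log2 fold changes of low genes are understated by the pseudocount.

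The 2 muscles with 1 animal number in the labels come from 1 rat. Their deviations from group means had a median r of 0.174 over genes (12 pairs, 8 of them over 0.1) beside -0.00964 for 132 pairs of different rats. A fit with the rat as a block was an alternative, as were unscaled values, other pseudocounts and filters, time-matched controls, the transcript with the highest mean, other thresholds and each muscle left out in turn. The 0 pairs of identical libraries were found among all pairs. The fit was tested on simulated data. The members, the 15 gene lists and the comparisons were chosen with earlier results of these data known. All 8 genes were named, and from each other list the 3 with the largest change past the threshold at a time, not all of which are given, plus family members and collagens set by name. Not every listed gene is in the table used here. Labels give 3 rats per time, where the design text gives 4.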

Additional observations from a re-analysis of the deposited data

Results flagged for a closer look

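These 5 differences between trained groups passed the limma test of the difference itself (Benjamini-Hochberg adjusted over all genes tested). Plod2 fell by 0.83 on the log2 scale from 2 to 20 days (limma adjusted p = 0.00732) and fell by 0.66 from 2 to 30 days (limma adjusted p = 0.0196). P4ha1 was 0.47 higher on the log2 scale after 30 than after 2 days (limma adjusted p = 0.0334), with means of 21.6 and 15.4 beside a control mean of 28.6. From 10 to 30 days Loxl2 fell by 0.97 (limma adjusted p = 0.0146) and Serpinh1 fell by 0.69 (limma adjusted p = 0.0392). The fit with the rat as a block compares changes from the contralateral muscle between times, not trained levels. There none of the 5 was called (limma adjusted p = 0.0825, 0.122, 0.796, 0.123 and 0.507 in the order given), and the sizes were 0.83, 0.69, 0.11, 1.01 and 0.47 in the same order. For P4ha1 the control means were 24.9 in the 2 day rats and 32.3 in the 30 day rats.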

How the results depend on the processing

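The calls of the 8 genes at 2, 10 and 20 days and over all times kept their count within 1.5 times under the alternatives run, except that a mean of at least 10, which leaves P4ha1, P4ha2 and Serpinh1 to be tested, gave 2, 3, 2 and 2. After 30 days 5 genes were called, and 3 on values as deposited and 2 with a mean of at least 10, with the replicate block (P4ha1 and Loxl1), at an adjusted p under 0.01 and with time-matched controls (P4ha1 and Serpinh1). Leaving out 1 muscle in turn gave from 2 (without trained replicate 1 or 3 of 30 days) to 5. For times set against each other, the replicate block compares changes from the contralateral muscle, not trained levels. From 2 to 20 days the 1 call became 0 with the mean of at least 10, with the replicate block and with the transcript of highest mean, and ranged from 0 (without trained replicate 2 of 2 days) to 1 with muscles left out. From 2 to 30 days the 2 calls became 5 as deposited, 0 with the block, 1 with the highest transcript and 0 at an adjusted p under 0.01, ranging from 0 to 5 with muscles left out. From 10 to 30 days the 2 calls became 6, 0 and 1 under the same alternatives, 0 at 0.01, 0 with a pseudocount of 0.1 and 4 at an unadjusted p under 0.01, ranging from 0 to 2 with muscles left out. From 10 to 20 days the 0 calls became 1 at an unadjusted p under 0.01, ranging from 0 to 1, and among the controls 0 became 1 at that threshold. Uncalled values changed sign for P4ha2 after 20 days (0.093 with the replicate block and with time-matched controls, and from -0.16 without trained replicate 2 to 0.095 without trained replicate 3), Plod1 after 2 days (-0.032 with both) and Plod2 after 20 days (from -0.048 without trained replicate 3 to 0.18 without trained replicate 1). The cause was not tested. The counts over all genes after 2, 10, 20 and 30 days were 3235, 3240, 2393 and 2304. They were 1654, 1420, 1064 and 1155 with a mean of at least 10 (3841 genes tested) and 1958, 2050, 1420 and 1296 at an adjusted p under 0.01. With time-matched controls 2007, 1589 and 1121 were called after 10, 20 and 30 days, and with the replicate block 1377 after 30 days. Leaving out 1 muscle gave 1513 after 2 days (trained replicate 2), 2147 after 10 days (replicate 1) and 1472 and 1492 after 30 days (replicates 2 and 3). Between trained groups 901, 1677 and 441 genes differed from 2 to 20, 2 to 30 and 10 to 30 days, and 194, 314 and 9 with the replicate block, 345, 782 and 97 at an adjusted p under 0.01, and 3294 from 2 to 30 and 2071 from 10 to 30 days on values as deposited. Without trained replicate 2 of 2 days 336 and 724 differed from 2 to 20 and 2 to 30 days, and without trained replicate 1 of 10 days 110 from 10 to 30 days. The block changed no call of the 8 genes at 2, 10 or 20 days. The gene-level table could not give member counts.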
